A study of Mus musculus with 4 samples.

Results

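This report describes 79 noncoding RNA genes that were expressed in mouse macrophages with and without the transcription factor Batf2, before and after lipopolysaccharide (LPS). They were selected on their measured level. A gene was kept when all of its entries in the deposited tables carried a noncoding RefSeq accession, its name did not start with Mir, Snor, Gm, Scarna or n-R, and it lay outside chr19:5800000-6500000. Its summed FPKM, which is a read count divided by transcript length and library size, also had to reach 5 in at least 1 of the 4 libraries, with the status OK in all. Of the 24089 gene symbols or unnamed accessions in the tables, 3459 symbols had noncoding entries alone, 1657 of these were left after the rules on name and position, 1572 stayed under the floor in all 4 libraries, and 6 over it had another status. A further 9 accessions over the floor could not be named and are not described. All cells were C57BL/6 macrophages grown from bone marrow, kept as the adherent cells after 6 days in GM-CSF at 10 ng/ml, and given interferon-gamma at 10 ng/ml for 4 h. The groups were Batf2-/- cells (KO) after 3 h of LPS at 100 ng/ml, wild-type Batf2+/+ cells (WT) after 3 h of LPS, KO cells at 0 h of LPS and WT cells at 0 h of LPS. Interferon-gamma was thus shared by all groups, and the sources used here do not say how many mice gave the marrow.

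Noncoding RNA genes are a mixed set. Some host small nucleolar RNAs (snoRNAs) in their introns, which guide the chemical modification of ribosomal RNA, and the spliced host transcript is often unstable. Others make the RNA part of an enzyme such as RNase P or RNase MRP, or a long noncoding RNA that acts on nearby genes or on proteins, and several such long RNAs are known to be switched on in macrophages by Toll-like receptor signalling. Processed pseudogenes are copies of a coding gene whose reads can be hard to tell from those of the parent.

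Each group held 1 library, so no comparison could be tested, no p-value is given, and culture-to-culture spread is unknown. In units of 1000000 reads, the depth estimated from entries that rest on a single read was 30.8 for KO at 3 h, 20.3 for WT at 3 h, 28.0 for KO at 0 h and 24.7 for WT at 0 h. Intervals below come from the deposited 95% limits of an FPKM, which cover counting and read assignment in that library alone. The deposited value lay outside its own limits for 34 of the 79 genes. The limits were therefore moved onto the FPKM: where it was above 0, both were multiplied by its ratio to their midpoint. Pairwise calls used the limits before this step, and the difference of LPS responses used the moved ones. Batf2 had an FPKM of 10.1 in KO and 234 in WT at 3 h, and of 0.259 in KO and 2.63 in WT at 0 h, so it was lower in both KO libraries. The 13 macrophage markers summed to between 19220 and 28809 FPKM in the 4 libraries, and none was at 0. Lyz2 alone gave between 14415 and 23092 of these sums. Between genotypes Cd14 was the only macrophage marker past the size rule, at 3 h, with 625 in KO and 294 in WT. It also had the higher LPS response in KO, by 1.20 in log2(FPKM + 1). Markers of neutrophils and their precursors differed with genotype at 0 h. Their 12 genes summed to 9254 FPKM in KO and 3759 in WT at 0 h, with 12 of 12 above zero in difference and 5 past the size rule, against 5602 in KO and 5832 in WT at 3 h, with 6 of 12 above zero. None of these 12 markers was at 0 in a library. In a bulk sample, fewer cells of a type and less RNA per cell cannot be told apart.

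The label of noncoding RNA held for part of the set only. By current RefSeq types, by name and by the snoRNA genes inside them, 31 of the 79 were pseudogenes, 28 were other long noncoding RNAs, 12 were snoRNA hosts, 4 were RNAs of an RNA-protein complex, and 4 are now annotated as coding. Their median FPKM was 8.44 in KO and 7.78 in WT at 3 h, and 9.69 in KO and 10.9 in WT at 0 h. In each library 3 of them reached 100 FPKM. A total of 39 were at or over the floor of 5 in all 4 libraries, while 10 were at 3 h alone, 23 at 0 h alone, 4 in KO libraries alone and 6 in WT libraries alone. Genes that passed through 1 condition alone had to be higher there, so the counts below describe the set and support nothing about noncoding RNA as a class. Just inside the floor were Snhg20 with a highest FPKM of 5.03 and 2010320M18Rik with 5.15, and just outside it were Gdap10 with 4.98 and 4933412E12Rik with 4.96.

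LPS went with larger differences than genotype did. A difference was counted when log2(FPKM + 1) differed by at least 1, which is 2-fold, 1 or both libraries had an FPKM of 1 or more, and the deposited intervals did not overlap. After 3 h of LPS in KO cells, 12 of 78 measured genes were higher and 23 lower, beside 9.32% higher and 28.3% lower of all genes over the same floor. After LPS in WT cells, 10 of 78 were higher and 18 lower, beside 8.87% higher and 22.7% lower. The median difference of the 79 was -0.54 in KO and -0.40 in WT, and that of all 8259 genes over the floor was -0.60 in KO and -0.49 in WT. The lower shares of the set, 29.5% in KO and 23.1% in WT, thus lay near the background. The higher shares, 15.4% in KO and 12.8% in WT, lay above it, but they rest on 12 and 10 genes and were not tested. Of the 79, 10 were higher in both genotypes, 17 were lower in both, and 43 passed in neither. None was higher in 1 genotype and lower in the other by the rule. Scaling bears on the calls in both directions. With each library rescaled by its median ratio, the median over all genes moved to -0.16 in KO and -0.15 in WT. The lower calls then became 14 in KO and 14 in WT, and the higher calls 16 in KO and 15 in WT. The shares of all genes past the rule after rescaling are not given here.

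**Figure D1:**
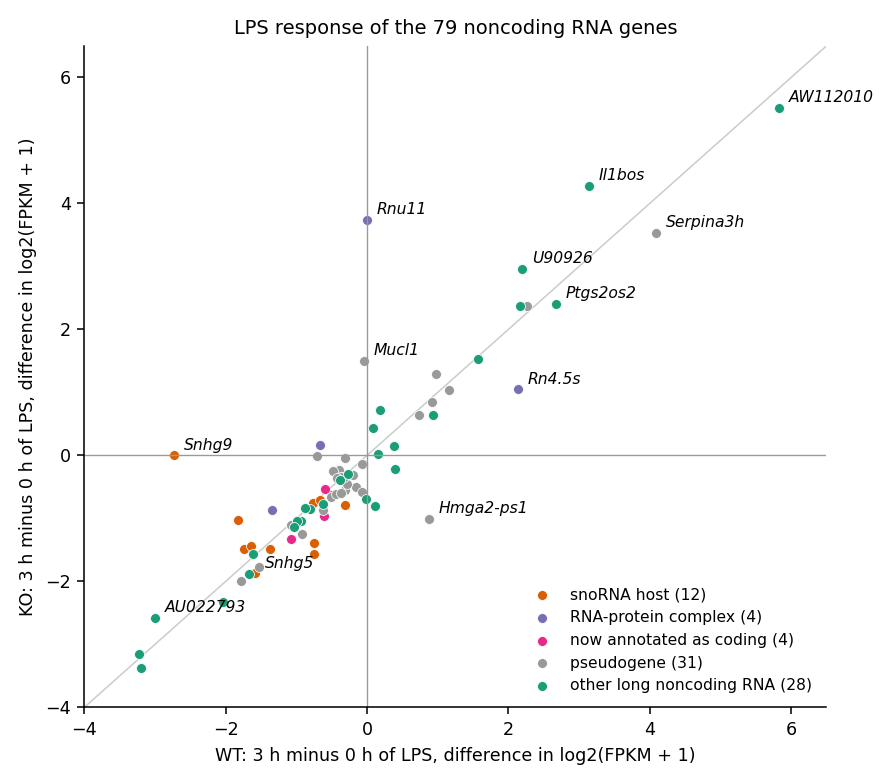
LPS response of each of the 79 genes, as the difference in log2(FPKM + 1) between 3 h and 0 h, in KO cells (vertical axis) and WT cells (horizontal axis), 1 point per gene, coloured by type. Most points lie along the diagonal, such as AU022793 (-2.58 in KO, -3.01 in WT) and AW112010 (5.52 in KO, 5.83 in WT), and Mucl1, Hmga2-ps1, Rnu11 and Snhg9 lie off it.

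The genes higher after LPS in both genotypes were AW112010, Il1bos, Serpina3h, U90926, Ptgs2os2, Bambi-ps1, A630072M18Rik, 6530402F18Rik, Rn4.5s and Slfn10-ps. AW112010, at chr19:11047612-11050566 on the minus strand, is known for its induction by bacterial products in mouse macrophages and for a protein made from a non-canonical reading frame. Its FPKM was 715 in KO and 862 in WT at 3 h, against 14.6 in KO and 14.2 in WT at 0 h. Both 3 h libraries lay far above both 0 h libraries, which is 49.0-fold in KO (interval 41.7 to 57.6) and 60.6-fold in WT (50.8 to 72.4). It had the highest FPKM of the set in each 3 h library.

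Ptgs2os2, at chr1:150159043-150164948 on the minus strand, is the RNA known as lincRNA-Cox2, which regulates inflammatory genes in mouse macrophages. Its FPKM was 6.80 in KO and 7.14 in WT at 3 h, against 0.479 in KO and 0.273 in WT at 0 h. The rise was 14.2-fold in KO (9.23 to 21.8) and 26.1-fold in WT (14.3 to 47.8), and the intervals of the genotypes overlapped at both times. A630072M18Rik, at chr5:20950989-20956398 on the plus strand, had an FPKM of 8.44 in KO and 7.01 in WT at 3 h, against 0.835 in KO and 0.794 in WT at 0 h. It was 10.1-fold higher after LPS in KO (8.29 to 12.3) and 8.83-fold higher in WT (7.07 to 11.0). U90926, at chr5:92209895-92215408 on the minus strand, is a transcript that activated mouse macrophages are known to make. Its FPKM was 23.1 in KO and 6.89 in WT at 3 h, against 2.11 in KO and 0.723 in WT at 0 h, so that KO was the higher genotype at each time. After LPS it was 11.0-fold higher in KO (6.37 to 18.8) and 9.54-fold higher in WT (3.04 to 29.9).

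Il1bos lies at chr2:129369902-129375733 on the plus strand and overlaps Il1b, the gene of the cytokine interleukin-1 beta, which is read from the other strand. Il1bos had an FPKM of 18.3 in KO and 7.78 in WT at 3 h, and it was listed at 0 in both 0 h libraries with limits of 0 to 0, so it has no fold. Such an entry may be a failed estimate, and the counts of Il1bos as higher after LPS and in the difference of responses rest on it. Il1b itself had an FPKM of 3976 in KO and 2694 in WT at 3 h, against 10.5 in KO and 9.27 in WT at 0 h. Both transcripts were higher in KO than in WT at 3 h, but the difference of Il1b, 0.56 in log2(FPKM + 1), did not pass the rule. The libraries kept strand, per the labels' protocols, but the strand setting of the quantification is not given in the sources used here, so reads of Il1b may be counted in Il1bos.

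Serpina3h, a member of the serine protease inhibitor family now typed as a pseudogene, had an FPKM of 11.8 in KO and 17.3 in WT at 3 h, against 0.102 in KO and 0.0743 in WT at 0 h. It was close to absent at 0 h in both genotypes, and its 0 h interval in WT reached 0. Bambi-ps1 had an FPKM of 8.52 in KO and 7.61 in WT at 3 h, against 0.834 in KO and 0.795 in WT at 0 h. Its parent Bambi, a decoy receptor of the TGF-beta pathway, stayed under 1 FPKM in each library, between 0.28 and 0.57. Slfn10-ps, of the Schlafen family known for its response to interferon, had an FPKM of 11.1 in KO and 12.1 in WT at 3 h, against 4.89 in each genotype at 0 h. The gene 6530402F18Rik had 18.6 in KO and 15.0 in WT at 3 h, against 5.77 in KO and 4.37 in WT at 0 h. It overlaps Ntng2, a netrin family gene on the same strand, which was listed at 18.3 in KO and 14.7 in WT at 3 h and at 4.37 in KO and 3.69 in WT at 0 h, so their reads are uncertain.

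**Figure D2:**
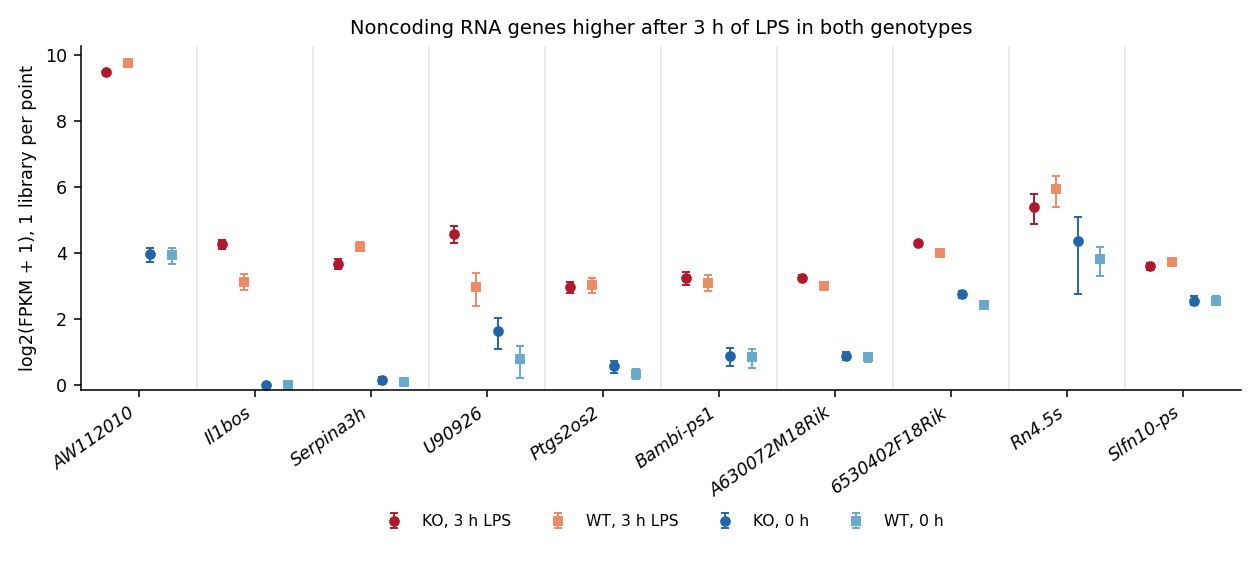
Level of the 10 genes higher after 3 h of LPS in both genotypes, as log2(FPKM + 1), with 1 point per library and bars for the 95% interval of the FPKM within that library. For AW112010 the 3 h libraries stand at 715 FPKM in KO and 862 in WT, above both 0 h libraries, and U90926 and Il1bos were higher in KO than in WT at 3 h.

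Promoters were searched for the letters of 6 motifs on both strands, in the window of 250 bases before to 50 after the start, from RefSeq on GRCm38.p6. A promoter was found for 35 of the 79 genes, among them 6 of the 10 genes higher after LPS in both genotypes and 11 of the 17 lower in both. The NF-kappaB letters GGGANNTTC occurred in 3.94% of 32851 promoters. They were present in 4 of these 6 and in 1 of these 11. For the 4, the match began at -69 from the start in AW112010 on the reverse strand, at 33 in Ptgs2os2, at -115 in A630072M18Rik and at -34 in Il1bos. The interferon response letters GAAANNGAA (8.56% of all promoters) were in 1 of the 6 and 3 of the 11, and the GAS letters TTCNNNGAA (8.30%) were in 2 of the 6 and 0 of the 11. The AP-1 letters TGANTCA (7.81%), which Batf family proteins are known to bind together with JUN proteins, were found in 1 of the 35, Morrbid, which is in neither group. The MYC E-box CACGTG (7.15%) was in none of the 17, and TATAAA (13.6%) was in 0 of the 6 and 2 of the 11. Matching letters are no evidence of binding. The 6 and the 11 were picked by their own LPS calls. Among the 6, Ptgs2os2, A630072M18Rik, U90926 and Il1bos reached the floor at 3 h alone. The call of Il1bos also rests on entries listed at 0. The percentages cover all promoters, whether the gene was expressed or not, so no enrichment is read from these counts. Sequences are shown for the 4 induced genes with the NF-kappaB letters and for U90926, which held none of the 6 motifs in this window, 5′ to 3′, with matches to any of the 6 in capitals; in Ptgs2os2 and Il1bos the NF-kappaB match overlaps a GAS match.
AW112010 promoter, chr19:11050517-11050816, minus strand: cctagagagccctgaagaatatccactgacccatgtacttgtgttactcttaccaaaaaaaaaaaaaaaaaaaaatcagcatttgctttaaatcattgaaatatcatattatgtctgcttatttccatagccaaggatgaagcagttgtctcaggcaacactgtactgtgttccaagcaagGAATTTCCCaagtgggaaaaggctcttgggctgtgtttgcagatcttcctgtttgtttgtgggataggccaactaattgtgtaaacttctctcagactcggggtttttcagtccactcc
Ptgs2os2 promoter, chr1:150164899-150165198, minus strand: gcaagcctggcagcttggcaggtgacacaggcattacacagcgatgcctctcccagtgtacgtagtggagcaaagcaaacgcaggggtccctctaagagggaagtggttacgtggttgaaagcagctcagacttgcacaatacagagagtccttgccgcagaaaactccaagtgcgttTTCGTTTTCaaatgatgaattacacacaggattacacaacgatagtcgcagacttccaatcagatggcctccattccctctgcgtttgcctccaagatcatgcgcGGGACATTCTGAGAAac
A630072M18Rik promoter, chr5:20950739-20951038, plus strand: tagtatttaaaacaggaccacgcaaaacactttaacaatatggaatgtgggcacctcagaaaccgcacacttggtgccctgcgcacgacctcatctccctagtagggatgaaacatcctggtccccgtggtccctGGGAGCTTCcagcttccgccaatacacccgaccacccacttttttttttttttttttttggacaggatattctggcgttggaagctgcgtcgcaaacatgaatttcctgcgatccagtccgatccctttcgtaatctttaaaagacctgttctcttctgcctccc
Il1bos promoter, chr2:129369652-129369951, plus strand: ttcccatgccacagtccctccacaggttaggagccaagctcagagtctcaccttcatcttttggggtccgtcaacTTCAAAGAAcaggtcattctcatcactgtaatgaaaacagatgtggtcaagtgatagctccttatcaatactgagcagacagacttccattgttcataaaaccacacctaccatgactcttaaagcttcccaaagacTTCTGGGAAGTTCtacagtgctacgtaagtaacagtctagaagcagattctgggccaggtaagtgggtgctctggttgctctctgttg
U90926 promoter, chr5:92215359-92215658, minus strand: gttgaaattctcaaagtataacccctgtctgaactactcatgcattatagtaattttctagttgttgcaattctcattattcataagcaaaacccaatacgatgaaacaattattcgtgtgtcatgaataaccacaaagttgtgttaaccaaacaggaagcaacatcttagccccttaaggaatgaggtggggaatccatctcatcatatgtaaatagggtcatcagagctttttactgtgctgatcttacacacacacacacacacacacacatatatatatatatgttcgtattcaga

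The 12 snoRNA hosts were below zero after LPS in nearly every case. In KO cells 7 of them passed the rule as lower, 11 of 12 were below zero, and the median difference was -1.21. In WT cells 6 passed as lower, 12 of 12 were below zero, and the median was -1.07. Over all genes above the floor, 28.3% passed as lower in KO and 22.7% in WT, and 77.5% were below zero in KO and 75.5% in WT. Gas5, Snhg5, Snhg12, Snhg20, Epb41l4aos and Snhg9 reached the floor of 5 FPKM at 0 h alone. The selection thus favoured a fall for these hosts, and nothing about hosts as a class is read from the counts. Without Snhg9, listed at 0 in 3 libraries, 7 of 11 passed as lower in KO and 5 of 11 in WT, with medians of -1.39 and -0.77. After rescaling 6 hosts still passed as lower in KO and 6 in WT, with medians of -0.87 and -0.77, while with a pseudocount of 5 only 2 passed in each genotype.

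Gas5, at chr1:161035166-161038537, holds 10 annotated snoRNA genes and is known to build up when growth stops, since its spliced RNA is degraded as it is translated. Its FPKM was 2.28 in KO and 2.08 in WT at 3 h, against 7.85 in KO and 8.59 in WT at 0 h. It fell 3.45-fold in KO (2.75 to 4.33) and 4.12-fold in WT (3.22 to 5.28). Snhg5, which holds 2 snoRNA genes, had an FPKM of 1.04 in KO and 1.74 in WT at 3 h, against 6.46 in KO and 7.17 in WT at 0 h. Snhg1, which holds 8, had 6.03 in KO and 4.46 in WT at 3 h, against 18.8 in KO and 13.1 in WT at 0 h. For each of these hosts both 3 h libraries lay below both 0 h libraries, and the genotypes overlapped at each time. The host 2410006H16Rik, with 3 snoRNA genes, had 5.29 in KO and 7.44 in WT at 3 h, against 16.7 in KO and 27.1 in WT at 0 h, where KO lay below WT without passing the rule. Snhg20 fell in both genotypes as well, and its FPKM was 1.48 in KO and 0.707 in WT at 3 h, against 4.07 in KO and 5.03 in WT at 0 h. Snhg12 and Epb41l4aos passed as lower in KO alone, but the difference of their LPS responses between genotypes, -0.64 for Snhg12 and -0.82 for Epb41l4aos, had intervals that included 0. Snhg3, Snhg6, Snhg15 and 1110038B12Rik did not pass in either genotype, with differences between -0.79 and -0.31.

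**Figure D3:**
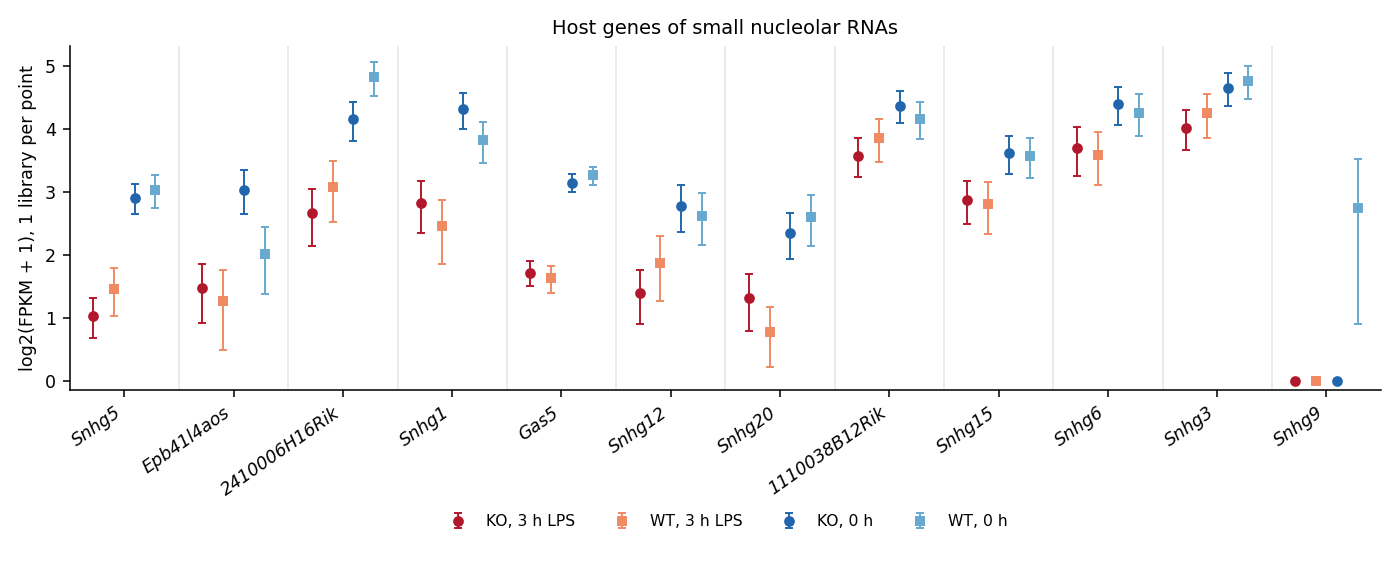
Level of the 12 snoRNA hosts as log2(FPKM + 1), 1 point per library, with bars for the 95% interval of the FPKM within that library. In both genotypes the 3 h library lies below the 0 h library for 11 of the 12 hosts, the exception being Snhg9, which was listed at 0 in 3 libraries and at 5.65 FPKM in WT at 0 h.

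Proteins that work with these RNAs were read from lists chosen by function, and their counts stand beside the 28.3% in KO and 22.7% in WT of all genes over the floor that passed as lower after LPS. Of the 6 measured proteins of the box C/D particle, which binds most intronic snoRNAs, 3 fell in KO (Nop56, Nop58 and Rrp9) and 1 in WT (Nop56) after LPS. Nop56 had an FPKM of 7.84 in KO and 8.88 in WT at 3 h, against 35.8 in KO and 32.4 in WT at 0 h. Of 6 measured proteins of the box H/ACA and telomerase particle, Gar1 fell in both genotypes, Naf1 in KO and Wrap53 in WT. Dkc1, the pseudouridine synthase, was listed at 0 in both 3 h libraries and at 11.2 in KO and 10.1 in WT at 0 h. Whether the 0 is a failed estimate was not tested, and without Dkc1 2 of 5 were lower in each genotype. Of the 19 measured proteins of the nuclear RNA exosome and its adaptors, which degrade noncoding RNA in the nucleus, 10 fell and 1 rose in KO, and 7 fell and 1 rose in WT. Those that fell in both were the core subunits Exosc1, Exosc2, Exosc5, Exosc6 and Exosc7, the nuclease Dis3 and the adaptor Zfc3h1, and Exosc3, Exosc8 and the helicase Mtrex passed in KO alone. The exception was Rbm7, an adaptor that brings the exosome to RNA, with 101 in KO and 85.4 in WT at 3 h, against 38.1 in KO and 37.6 in WT at 0 h. Of 14 factors of nonsense-mediated decay, the pathway that degrades Gas5, 4 fell in KO (Upf1, Upf3b, Smg5 and Smg6) and 1 in WT. Upf3b was the factor that fell in both, with 4.94 in KO and 4.02 in WT at 3 h, against 12.8 in KO and 13.4 in WT at 0 h. The medians after LPS were -0.96 in KO and -0.48 in WT for box C/D, -0.92 and -0.69 for box H/ACA without Dkc1, -1.08 and -0.85 for the exosome, and -0.51 in both genotypes for decay factors. None of the genes in these lists passed the rule between genotypes at 0 h or at 3 h.

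Lists for other RNAs were read in the same way. Of the 11 proteins of the 7SK and 7SL particles, Hexim1, an inhibitor of the elongation factor P-TEFb, was the 1 that passed, as lower after LPS in KO and in WT. Its FPKM was 4.27 in KO and 4.45 in WT at 3 h, against 11.4 in KO and 10.9 in WT at 0 h. Of 9 proteins known to work with Xist, Lbr alone passed, with 4.71 in KO and 4.85 in WT at 3 h, against 16.5 in KO and 12.9 in WT at 0 h. Of 9 microRNA processing genes, Dgcr8 and Xpo5 fell and Ago3 rose in both genotypes. The medians after LPS were -0.49 in KO and -0.48 in WT for the 7SK and 7SL proteins, -0.54 and -0.62 for the Xist partners, and -0.72 and -0.67 for microRNA processing.

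The 4 RNAs of RNA-protein complexes are short, and their intervals were wide. Rmrp, at chr4:43492785-43493059, is the RNA of RNase MRP, which cuts ribosomal RNA precursors. Its FPKM was 1.19 in KO (interval 0.182 to 2.19) and 4.77 in WT (1.53 to 8.01) at 3 h, against 3.01 in KO (0.820 to 5.19) and 13.7 in WT (7.51 to 19.9) at 0 h. KO lay below WT at both times, by 4.56-fold at 0 h (1.61 to 13.0) where it passed the rule, and by 4.02-fold at 3 h (0.903 to 17.9), where the intervals overlapped. Rpph1, at chr14:50807447-50807771, is the RNA of RNase P, which trims transfer RNA precursors. Its FPKM was 2.27 in KO and 4.56 in WT at 3 h, against 1.92 in KO and 7.80 in WT at 0 h. It was 4.07-fold lower in KO at 0 h (1.43 to 11.6), and 2.01-fold lower at 3 h (0.635 to 6.37), which did not pass. Neither passed after LPS in either genotype.

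The 11 proteins that RNase MRP and RNase P share or use gave no matching difference between genotypes. None passed at 0 h or 3 h, and their medians were 0.10 at 0 h and -0.14 at 3 h. After LPS, 5 of 10 measured were lower in KO and 4 of 9 in WT, with medians of -1.03 and -0.55. Pop5, Rpp14, Rpp25l and Rpp38 fell in both genotypes, and Rpp40 fell in KO. In WT Rpp40 was under 1 FPKM at 0 h and at 3 h, so it was not measured there. Pop5, for example, had an FPKM of 2.80 in KO and 3.86 in WT at 3 h, against 9.37 in KO and 11.9 in WT at 0 h. Rn4.5s, a rodent RNA made by RNA polymerase III, was summed over 10 near-identical copies, so its level is uncertain. It was listed at 41.3 in KO and 60.4 in WT at 3 h, against 19.5 in KO and 13.0 in WT at 0 h. In KO this was 2.12-fold (0.828 to 5.43), so it passed on the deposited limits and not with the limits moved onto the FPKM. Rnu11, the U11 RNA of the minor spliceosome, was listed at 12.3 in KO at 3 h, with an interval that reached 0, and at 0 in the other 3 libraries.

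Among the other long noncoding RNAs, 9 of 28 were lower after LPS in KO and 7 in WT, beside 28.3% in KO and 22.7% in WT of all genes over the floor, which is near those shares. AU022793 had an FPKM of 1.47 in KO and 1.74 in WT at 3 h, against 13.7 in KO and 20.98 in WT at 0 h. This was a fall of 9.36-fold in KO and 12.1-fold in WT (interval in WT 8.76 to 16.6). The gene 2610507I01Rik had 0.562 in KO and 0.832 in WT at 3 h, against 6.88 in KO and 6.52 in WT at 0 h. The gene 9330133O14Rik had 1.48 in KO and 1.71 in WT at 3 h, against 8.12 in KO and 7.61 in WT at 0 h. In each of these both genotypes had the low values at 3 h. Fam219aos and 9130221H12Rik were listed at 0 in both 3 h libraries, and at 0 h they were listed at 9.33 and 7.89 in KO and at 8.21 and 8.40 in WT. E230016K23Rik overlaps the chemokine gene Ccl6 on the other strand, and its 4.40 in KO and 5.18 in WT at 3 h, against 15.0 in KO and 18.01 in WT at 0 h, are uncertain for that reason. Its difference between genotypes at 3 h, -0.20, became 1.16 with the entry of highest mean FPKM alone. F630028O10Rik, on the X chromosome, had 4.13 in KO and 3.08 in WT at 3 h, against 10.3 in KO and 7.32 in WT at 0 h. The genes 2810025M15Rik and 2010320M18Rik passed as lower in KO, at -1.05 and -1.04, and were at -0.99 and -0.93 in WT. 1500011B03Rik and 4930539J05Rik passed in neither.

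Several long noncoding RNAs with known roles did not pass the rule. Norad, which binds the Pumilio proteins, had an FPKM of 30.4 in KO and 29.0 in WT at 3 h, against 37.4 in KO and 35.3 in WT at 0 h. Tug1 had 9.60 in KO and 9.70 in WT at 3 h, against 12.9 in KO and 13.0 in WT at 0 h. For both genes the genotypes overlapped at each time. Oip5os1, known as Cyrano and for directing the decay of the microRNA miR-7, had 13.9 in KO and 15.9 in WT at 3 h, against 25.8 in KO and 30.1 in WT at 0 h. Morrbid, which supports the survival of short-lived myeloid cells in mice, had 30.8 in KO and 29.2 in WT at 3 h, against 19.4 in KO and 14.8 in WT at 0 h. Its differences of 0.64 in KO and 0.93 in WT fell short of the rule, and after rescaling both passed it, at 1.09 in KO and 1.29 in WT. AI662270 had the highest level of the long noncoding RNAs at 0 h, with 76.7 in KO and 66.9 in WT, and its 78.2 in KO and 74.8 in WT at 3 h left it within 0.16 of that in log2(FPKM + 1).

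Of the 31 pseudogenes, 5 were higher and 6 lower after LPS in KO, and 3 were higher and 4 lower in WT. Of all genes over the floor, 9.32% were higher and 28.3% lower in KO, and 8.87% were higher and 22.7% lower in WT. For 17 pairs the parent gene was also measured. Pseudogene and parent differed by less than 0.2 in log2 difference for 10 of 17 pairs after LPS in KO, 11 of 17 after LPS in WT, 13 of 17 between genotypes at 0 h and 15 of 17 at 3 h. Stxbp3-ps, whose parent takes part in vesicle fusion, had an FPKM of 30.0 in KO and 29.1 in WT at 3 h, against 11.6 in KO and 14.4 in WT at 0 h. The parent Stxbp3 had 61.3 in KO and 56.9 in WT at 3 h, against 24.3 in KO and 24.1 in WT at 0 h. Gpr137b-ps and Gpr137b fell together, by 1.11 and 1.10 in KO and by 1.08 and 1.08 in WT. Such pairs can share reads, and the part of shared reads was not tested.

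Both Pisd pseudogenes differed from their parent by more after LPS. Pisd-ps1 had an FPKM of 2.22 in KO and 2.71 in WT at 3 h, against 9.97 in KO and 9.67 in WT at 0 h, and Pisd-ps3 had 5.90 in KO and 6.61 in WT at 3 h, against 26.5 in KO and 25.3 in WT at 0 h. Their parent Pisd, a mitochondrial enzyme of phospholipid synthesis, had 26.7 in KO and 28.2 in WT at 3 h, against 39.1 in KO and 41.6 in WT at 0 h, which did not pass. The gap to the parent was -1.23 in KO and -0.98 in WT for Pisd-ps1, and -1.46 in KO and -1.25 in WT for Pisd-ps3. H2-Q5 and H2-K2, of the class I histocompatibility region, did not pass as deposited, with differences of 0.85 and 0.63 in KO and 0.92 and 0.73 in WT. After rescaling both passed as higher in both genotypes. Ubb-ps had entries at separate loci, 1 of them inside the ubiquitin gene Ubb, and its values of 424 to 690 FPKM are uncertain. Tubb2a-ps2 passed as lower in KO, at -1.25, and was at -0.92 in WT, and 5830417I10Rik fell by 1.10 in KO and by 1.08 in WT. Rpl14-ps1, of a large ribosomal subunit protein, had 252 in KO and 274 in WT at 3 h, against 384 in KO and 371 in WT at 0 h, and Rps19-ps3, of a small subunit protein, had 79.7 in KO and 83.8 in WT at 3 h, against 121 in KO and 108 in WT at 0 h. Neither passed, nor did 3000002C10Rik, 4930503E24Rik, E030024N20Rik, E130201H02Rik, Morf4l1-ps1, Npm3-ps1, Ppp1r2-ps3, Ptma-ps2, Rps15a-ps4, Rps15a-ps6, Smarca5-ps or Znf41-ps. Each of these lay below zero in both genotypes, between -0.87 and -0.07.

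The 4 genes now annotated as coding include Mtln and 1810058I24Rik, also called Stmp1, which encode small proteins of mitochondria. All 4 were below zero after LPS in both genotypes, and 0610012G03Rik passed as lower, with an FPKM of 10.3 in KO and 13.6 in WT at 3 h, against 27.6 in KO and 29.9 in WT at 0 h. Mtln had 6.93 in KO and 7.84 in WT at 3 h, against 14.4 in KO and 12.4 in WT at 0 h, and did not pass. Stmp1 had 41.4 in KO and 43.0 in WT at 3 h, against 60.3 in KO and 65.2 in WT at 0 h, and 2610001J05Rik stayed between 21.9 and 24.4 in the 4 libraries; neither passed. None of the 4 passed between genotypes.

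Few of the 79 genes passed between genotypes. At 0 h, 2 of 73 measured genes were higher in KO, beside 1.09% of all genes over the floor, and 4 were lower, beside 0.404%. The higher genes were A930005H10Rik and Epb41l4aos, and the lower ones Rmrp, Rpph1, Mucl1 and Snhg9, of which Snhg9 rests on an entry listed at 0. At 3 h, 3 of 75 were higher in KO, beside 0.627%, and 2 were lower, beside 0.664%. The higher genes were A930005H10Rik, Il1bos and U90926, and the lower ones Hmga2-ps1 and Rps4l. The medians of the 79 were 0.03 at 0 h and -0.07 at 3 h, beside 0 and -0.08 over all genes above the floor. As shares of the measured genes, the calls were 2.74% higher and 5.48% lower at 0 h, and 4% higher and 2.67% lower at 3 h. Each lay above the share of all genes, but each rests on 2 to 4 genes and 1 library per group. These differences in share were not tested. The neutrophil and precursor markers were higher in KO at 0 h, where 2 genes of the set were called higher and 4 lower. The part of these markers in the 0 h calls was not tested. Stromal markers were likewise higher in sum, with 286 in KO and 216 in WT at 0 h, 3 of 7 measured past the rule and none of the 8 listed at 0. Dendritic cell markers went the other way, with a sum of 3343 in KO and 5332 in WT at 0 h and 2 of 9 measured lower. Markers of mast cells, basophils and eosinophils summed to 50.1 in KO and 32.7 in WT at 0 h, with 7 of 7 measured above zero and Hdc past the rule, and Fcer1a was listed at 0 in KO. At 3 h they summed to 35.1 in KO and 44.7 in WT, where Epx and Prg2 were lower in KO, at -1.23 and -1.08, and Gata2 was higher, at 1.28. The part of these markers in the calls was not tested either.

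A930005H10Rik, at chr3:115881579-115888130, had an FPKM of 3.77 in KO and 1.30 in WT at 3 h, and of 7.13 in KO and 2.54 in WT at 0 h. KO was higher at each time, 2.91-fold at 3 h (1.40 to 6.04) and 2.81-fold at 0 h (1.74 to 4.54). It is summed over 3 entries, and with the entry of highest mean FPKM alone the 3 h difference turned to -0.16. Dph5, an enzyme of diphthamide synthesis that lies 53 bases away on the other strand, did not pass between genotypes, with 2.34 in KO and 2.50 in WT at 3 h and 6.68 in KO and 5.28 in WT at 0 h. Epb41l4aos had 7.19 in KO and 3.01 in WT at 0 h, and 1.76 in KO and 1.39 in WT at 3 h. U90926 was 3.36-fold higher in KO at 3 h (2.15 to 5.24). At 0 h it was 2.92-fold higher (0.894 to 9.56), which did not pass.

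Mucl1, typed as a pseudogene in the mouse, stood low in 1 library. Its FPKM was 17.9 in KO and 16.99 in WT at 3 h, and 5.66 in KO and 17.5 in WT at 0 h. The other 3 libraries lay within each other's intervals. Hmga2-ps1 had 2.49 in KO and 7.50 in WT at 3 h, and 6.02 in KO and 3.64 in WT at 0 h, so that KO was below WT at 3 h and above it at 0 h. Its parent Hmga2, a chromatin architectural protein, stayed under 1 FPKM in each library. Hmga2-ps1 overlaps the coding gene Sdccag8, and the strand of the pseudogene is not annotated, so its reads are uncertain. Sdccag8 had 2.95 in KO and 5.15 in WT at 3 h, and 6.60 in KO and 8.03 in WT at 0 h. Its difference between genotypes at 3 h, -0.64, did not pass. Rps4l, a relative of the ribosomal protein gene Rps4x, had 4.74 in KO and 11.0 in WT at 3 h, and 7.57 in KO and 11.7 in WT at 0 h. Dubr fell just short of the rule at 3 h, with 5.66 in KO and 12.2 in WT, and it had 10.7 in KO and 11.2 in WT at 0 h. The pseudogenes 6820431F20Rik and 2610005L07Rik were the higher in KO at both times without passing, by 0.58 and 0.63 at 3 h and by 0.41 and 0.36 at 0 h. AI504432 was at -0.59 at 0 h, with an FPKM of 7.70 in KO and 12.1 in WT. Its neighbour Kcna3, a potassium channel gene, had 6.84 in KO and 12.0 in WT at 0 h. At 3 h BC064078 and 2210408F21Rik were at -0.49 and -0.44 without passing. 2210408F21Rik is summed over 6 entries, and with the entry of highest mean FPKM alone it was at -1.21 at 0 h, against 0.17 as summed.

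The LPS response itself differed between genotypes for 5 of the 79 genes, by a difference of responses of at least 1 whose interval left out 0. Il1bos, Mucl1, Rnu11 and Snhg9 had the higher response in KO, beside 0.969% of all genes over the floor, and Hmga2-ps1 had the lower one, beside 1.44%. The value was 1.14 for Il1bos, 1.54 for Mucl1 and -1.88 for Hmga2-ps1. For Rnu11 and Snhg9 it rests on 1 library with a value and 3 listed at 0, and for Il1bos on both 0 h libraries listed at 0. Without these 3 genes, whose zeros may be failed estimates, Mucl1 alone had the higher response. Without pseudogenes, genes listed at 0 and genes at shared loci, 40 genes were left, and none of them passed in either direction.

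**Figure D4:**
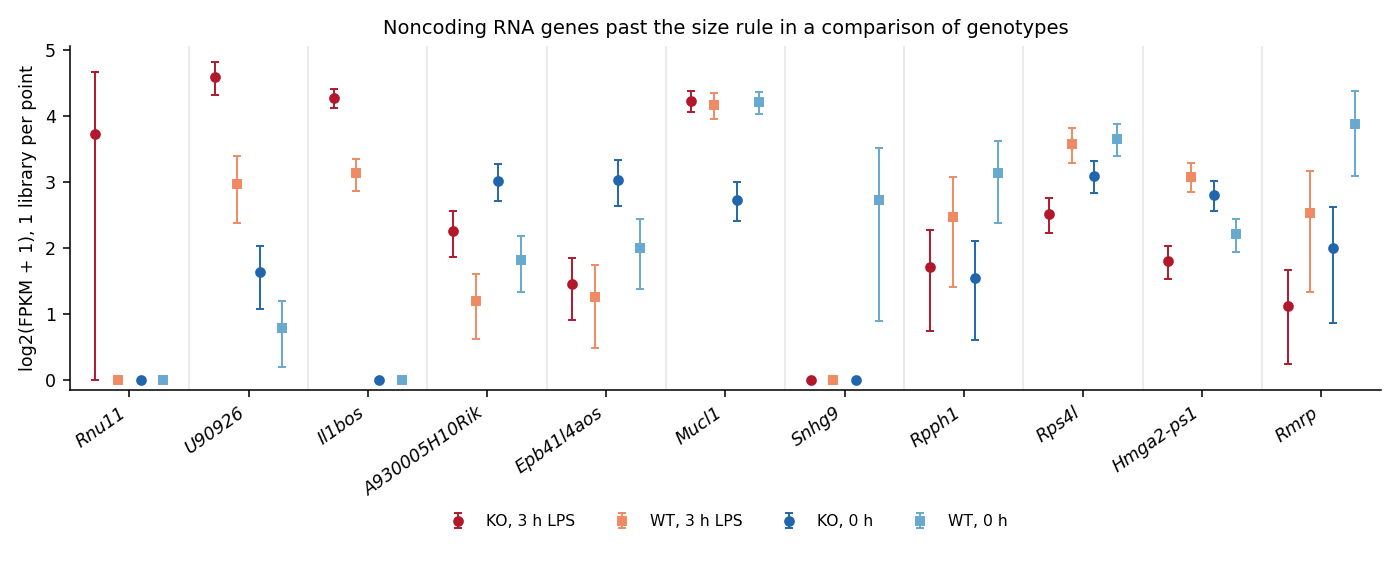
Level of the 11 genes that passed the size rule between genotypes or in the difference of LPS responses, as log2(FPKM + 1), 1 point per library, with bars for the 95% interval of the FPKM within that library. Mucl1 is low in KO at 0 h alone (5.66 FPKM). U90926 and A930005H10Rik have the higher FPKM in KO at both times, and Rmrp and Rpph1 the lower. U90926 at 0 h and Rmrp and Rpph1 at 3 h did not pass the rule.

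A coding gene overlapped or lay within 5 kb of 43 of the 79 genes, in 51 pairs, of which 32 were on opposite strands. Among opposite-strand pairs whose noncoding gene fell after LPS, the neighbour passed in the same direction in 6 of 18 pairs in KO and 2 of 15 in WT, and in the other direction in 2 of 18 and 2 of 15. Of all genes over the floor 28.3% passed as lower in KO and 22.7% in WT, so nothing about neighbours is read from these counts. Snhg1 starts 118 bases from Slc3a2, the shared heavy chain of amino acid transporters, which is read the other way. Slc3a2 had an FPKM of 247 in KO and 196 in WT at 3 h, against 115 in KO and 97.2 in WT at 0 h, so it rose while Snhg1 fell. The host 2410006H16Rik starts 78 bases from Lrrc75a, which had 6.56 in KO and 6.05 in WT at 3 h, against 2.58 in KO and 2.52 in WT at 0 h, and also rose. Both neighbours passed in both genotypes. The promoter windows of these 2 hosts, which reach across the gap to the neighbour, are shown with motif matches in capitals; the match in Snhg1 is to TATAAA on the reverse strand, and that in 2410006H16Rik is to the NF-kappaB letters.
Snhg1 promoter, chr19:8723237-8723536, plus strand: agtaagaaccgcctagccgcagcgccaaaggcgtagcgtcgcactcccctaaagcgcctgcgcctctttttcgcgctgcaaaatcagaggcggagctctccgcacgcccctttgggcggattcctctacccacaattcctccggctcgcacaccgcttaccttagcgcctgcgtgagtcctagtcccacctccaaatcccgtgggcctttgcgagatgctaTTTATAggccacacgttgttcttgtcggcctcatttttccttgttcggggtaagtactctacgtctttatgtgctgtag
2410006H16Rik promoter, chr11:62602627-62602926, plus strand: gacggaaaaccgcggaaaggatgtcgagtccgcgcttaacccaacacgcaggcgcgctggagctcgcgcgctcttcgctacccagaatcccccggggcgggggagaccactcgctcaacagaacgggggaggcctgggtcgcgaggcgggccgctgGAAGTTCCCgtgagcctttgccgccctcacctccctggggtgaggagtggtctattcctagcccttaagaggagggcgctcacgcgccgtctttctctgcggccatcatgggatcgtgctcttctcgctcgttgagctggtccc

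Other close pairs did not share a response either. BC051226 lies 267 bases from Daxx, a chaperone of histone H3.3. Daxx had an FPKM of 96.8 in KO and 90.7 in WT at 3 h, against 11.0 in KO and 11.1 in WT at 0 h. BC051226 did not pass, with 4.76 in KO and 6.16 in WT at 3 h, against 4.17 in KO and 4.52 in WT at 0 h. A630072M18Rik rose by 2.36 in KO and 2.16 in WT, while Rsbn1l, which it overlaps on the other strand, had differences of 0.67 and 0.60 that did not pass. Fam219aos, listed at 0 after LPS, overlaps Fam219a, which had 16.5 in KO and 15.2 in WT at 3 h, against 18.8 in KO and 16.8 in WT at 0 h. In contrast, 9330133O14Rik and Mvd, an enzyme of the mevalonate pathway that lies 234 bases away, fell together. Mvd had 11.1 in KO and 13.3 in WT at 3 h, against 53.2 in KO and 77.8 in WT at 0 h.

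Snhg9 lies 98 bases from Rps2, a ribosomal protein gene on the other strand. Rps2 had an FPKM of 154 in KO and 72.9 in WT at 3 h, and of 228 in KO and 94.7 in WT at 0 h, so it was higher in KO at both times and passed the rule at each. Snhg9 was listed at 5.65 in WT at 0 h (interval 0.869 to 10.4) and at 0 in the other 3 libraries, with limits of 0 to 0 that may mark a failed estimate. Its calls rest on those entries. Ribosomal protein genes have near-identical processed copies in the mouse, so the level of Rps2 is uncertain. Rmrp and Rpph1, lower in KO at 0 h, lie 306 bases from Ccdc107 and 175 bases from Parp2, a DNA repair enzyme. Neither neighbour passed between genotypes, and Parp2 had 9.52 in KO and 10.1 in WT at 3 h, and 18.1 in KO and 19.1 in WT at 0 h.

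**Figure D5:**
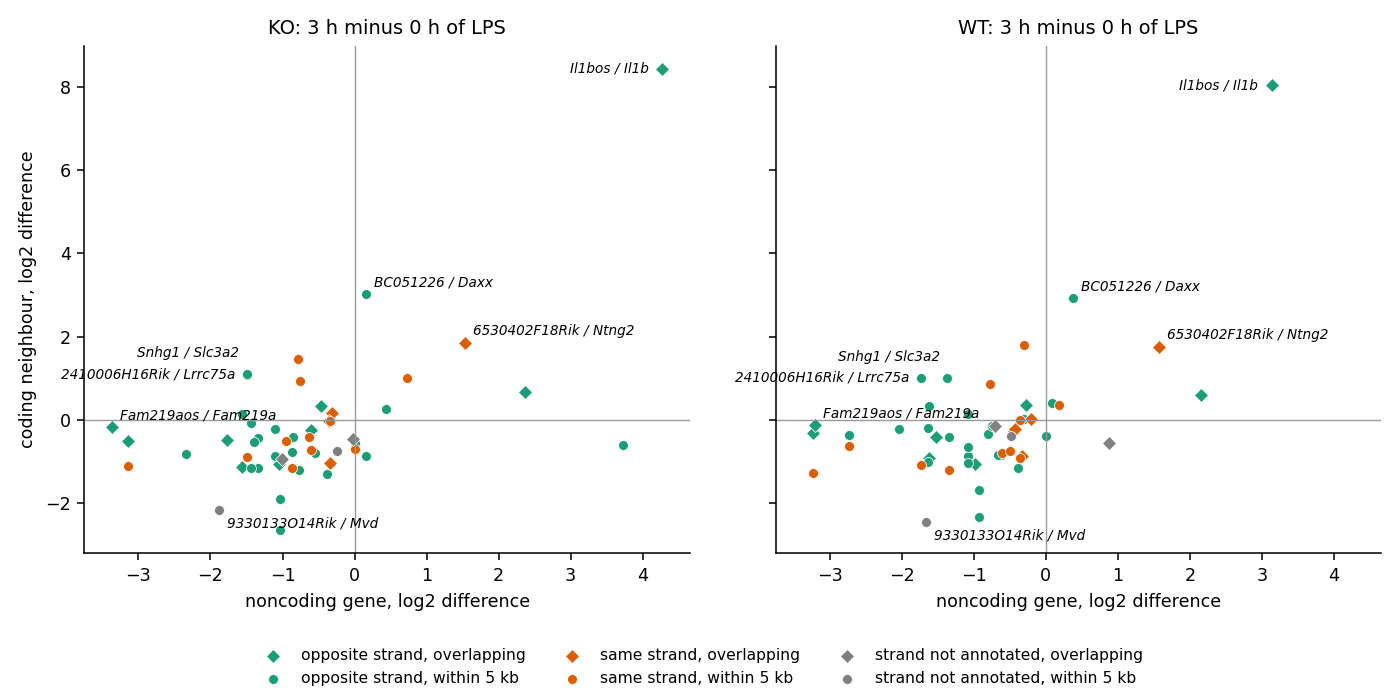
LPS response of each noncoding gene (horizontal axis) and of a coding gene that overlaps it or lies within 5 kb (vertical axis), both as differences in log2(FPKM + 1) between 3 h and 0 h, in KO (left) and WT (right), with 51 pairs per panel. Diamonds mark overlapping pairs. Snhg1 with Slc3a2 and 2410006H16Rik with Lrrc75a lie at the upper left, and Il1bos with Il1b at the upper right, where Il1b had 8.43 in KO and 8.03 in WT.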

How the data were processed

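Tables of 1 library per group were used. The authors deposited FPKM per RefSeq accession with lower and upper limits and a status, per the file headers in Cufflinks form. Per the submitters' processing notes, TopHat2 with Bowtie and SAMtools aligned reads to mm9, and Cufflinks gave FPKM; no version is stated. For 32 of 35 genes with a RefSeq promoter the deposited edge equals the GRCm38 start, so coordinates are given as GRCm38.

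Of 33841 entries, 33437 were named from the RefSeq gene table, 187 from the GENCODE table (release M21), 104 by position, and 113 not. FPKM were summed per symbol. Interval widths were combined as the square root of the sum of their squares. This treats the entries of a symbol as independent and gives narrower intervals than summed widths would. Near-identical copies, such as those of Rn4.5s, may not be independent, and this was not tested. Differences are of log2(FPKM + 1), computed with Python 3.11.15, pandas 2.3.3 and NumPy 2.4.6. With 1 library per group no test was made.

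Genes and lists were chosen with earlier results of these data known. Named genes were the 10 highest and 10 lowest of each comparison, all that passed between genotypes or in the difference of LPS responses, all snoRNA hosts, RNAs of complexes, X inactivation, imprinted and known long noncoding RNAs, coding neighbours within 5 kb, and list members that passed; the space given to each differs. Alternatives were pseudocounts of 0.1 and 5, rescaling by median ratios, other floors, 1 entry per symbol and no intervals. The 95% intervals cover counting and assignment within a library alone.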

Additional observations from a re-analysis of the deposited data

Results flagged for a closer look

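For 2 genes the difference of LPS responses passed the rule and the responses in the genotypes had opposite signs. For Hmga2-ps1 the difference of LPS responses, KO minus WT, was -1.88 in log2(FPKM + 1): its response was -1.01 in KO and 0.87 in WT. For Mucl1 it was 1.54, with a response of 1.503 in KO and -0.04 in WT, which as a ratio has an interval of 0.801 to 1.17 and so includes no change. Each rests on 1 library per group, and neither difference was tested. Hmga2-ps1 overlaps the coding gene Sdccag8, so its reads are uncertain.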

How the results depend on the processing

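With 1 library per group, culture-to-culture spread cannot be measured, and genes near the floor of 5 FPKM rest on few reads. No paired analysis was possible because each group holds 1 library and the labels give no replicate numbers. The cause of each change below was not tested, except that fewer genes enter when some are left out.

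With a pseudocount of 5, no gene was higher in KO at 0 h, 1 was higher and 0 lower at 3 h, 11 were lower after LPS in KO and 7 in WT, and the medians after LPS were -0.39 in KO and -0.29 in WT. With a pseudocount of 0.1, 2 genes had the lower LPS response in KO, which was also the count with 1 entry per symbol (2) and without intervals (2). With rescaling by median ratios, 1 gene was higher in KO at 0 h, 14 were lower after LPS in KO, and the medians after LPS were -0.12 in KO and -0.055 in WT. Without pseudogenes, genes listed at 0 and genes at shared loci, an alternative chosen after seeing the data, 2 genes were lower in KO at 0 h and 0 at 3 h. In that set 4 were higher and 14 lower after LPS in KO, 4 were higher and 10 lower in WT, the medians were -0.78 in KO and -0.64 in WT, and 0 and 0 had a higher or lower response in KO. With intervals moved onto the FPKM, also chosen after seeing the data, 13 of the 14 counts and medians were unchanged, and 11 genes were higher after LPS in KO, since Rn4.5s no longer passed. Without the 3 genes listed at 0 with limits of 0 to 0, likewise chosen after seeing the data, 1 gene had the higher LPS response in KO. With no filter on low values or a floor of 5 in a compared library, the 14 counts and medians stayed within 1.5 times or 0.1. With the entry of highest mean FPKM alone the sign turned between genotypes for A930005H10Rik at 3 h, to -0.16, for 2210408F21Rik at 0 h, to -1.21, and for E230016K23Rik at 3 h, to 1.16, and in the difference of LPS responses for 2210408F21Rik, to 1.80.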
